A study of Mus musculus with 31 samples.

Results

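Steady-state mRNA was compared between S51A and S51 cells at rest, that is, in cells that had received only the vehicle. The cells are mouse skin squamous cell carcinoma (SCC) cells that carry the HRasG12V oncogene and an altered TgfbrII, which the labels give as floxed (TgfbrII fl/fl) and the study's own list of cell lines as deleted (TgfbrII D/D). In both genotypes CRISPR-Cas9 had ablated the cells' own Eif2s1, the gene for eIF2α, and its product was supplied by a lentiviral, PGK-driven, myc-tagged transgene: the wild-type protein in S51 cells (titled Ctrl in the labels) and the S51A mutant, whose serine 51 is an alanine, in S51A cells. Both lines were derived as single-cell clones (2 for each genotype), and the clone behind each library was not given in the sources used here, so that genotype and clone cannot be told apart. All cells compared here were given DMSO for 4.5 h according to the labels (4 h in the study's text), and the further libraries drawn on below came from the same genotypes under 100 nM bortezomib, a proteasome inhibitor. The members are the autosomal genes that passed a filter on low counts in the total RNA table: 11353 of 11708 genes tested and of 24593 genes listed, measured in 4 S51A and 4 S51 vehicle libraries.

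The integrated stress response (ISR) is a translational programme: kinases that sense stress phosphorylate eIF2α on serine 51, phosphorylated eIF2α blocks its own exchange factor eIF2B, and general initiation falls while a few mRNAs with upstream open reading frames, above all Atf4, are translated better. ATF4 is a transcription factor that turns on genes of amino acid synthesis and uptake, tRNA charging and stress resistance, and with its partner CHOP (Ddit3) it drives genes of protein phosphatase recovery and cell death. An alanine at position 51 cannot be phosphorylated, so that S51A cells cannot mount this response. Squamous carcinoma cells keep a basal keratinocyte identity, marked by Krt5, Krt14 and Trp63, and can switch on genes of the cornified envelope and of keratinocyte inflammation.

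Library totals on genes ran from 18993181 to 22994713 reads in S51 vehicle and from 18990025 to 21655965 in S51A vehicle, so that 1 read was worth 0.0419 to 0.0503 counts per 1000000 (CPM, after TMM scaling). The labels of the S51A vehicle and S51 bortezomib samples had been exchanged, as the note to the series records, and columns were assigned by that note. Log2 CPM correlated at 0.995 to 0.996 between replicates and at 0.967 to 0.972 between the genotypes (12 and 16 pairs, across genes, which are not independent replicates), and PC1 of the 500 most variable genes held 91.4% of their variance and parted the genotypes. Sums over marker lists were scaled by the library total alone, without TMM. The basal keratinocyte markers summed to 19616 to 20473 CPM per library in S51 and to 25163 to 25352 in S51A. Fibroblast markers summed to 6.75 to 8.71 CPM in S51 and 5.22 to 7.88 in S51A, with 7 of 11 at 0 in all 8 libraries, among them Dcn, Lum and Col3a1. Immune markers summed to 3.79 to 4.93 and 7.48 to 8.69 CPM with 8 of 15 at 0 (Cd3e, Lyz2 and H2-Ab1 among them), endothelial markers to 24.7 to 27.2 and 21.7 to 27.0 CPM with 1 of 7 at 0, and melanocyte markers to 2.52 to 3.18 and 2.40 to 3.17 CPM with 2 of 7 at 0. In bulk libraries fewer cells of a type and less RNA per cell cannot be told apart. The 4 Y-linked genes tested (Ddx3y, Eif2s3y, Kdm5d and Uty) had 0 counts in every S51 vehicle library and 22.996 to 56.8 CPM in the S51A vehicle libraries. The replicates are called technical in the study's text and biological in its legends, so the p-values below measure the spread between these samples only.

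The 2 genotypes differ in the transgene, at the codon for residue 51 of eIF2α, counted without the initiator methionine (residue 52 with it). The matching serine codon of the endogenous Eif2s1, which was ablated in both genotypes, lies on mouse chromosome 12, on the plus strand. Its positions are 78866680 to 78866682 of mm10 (GRCm38.p6). The reference sequence around it, at chr12:78866650-78866712, is given here with the codon in capitals; the transgenes themselves were not read.
Eif2s1: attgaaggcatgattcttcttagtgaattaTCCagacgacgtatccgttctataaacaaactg

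Eif2s1 mRNA stood at nearly the same level in both genotypes. It had 299, 314, 312 and 314 CPM in S51 and 285, 298, 294 and 301 in S51A. The groups overlapped, and the difference was small and did not reach 2-fold (log2 fold change -0.07, SE 0.03, adjusted p = 0.047 by edgeR's quasi-likelihood test). Gene counts cannot part a transgene's reads from those of the endogenous gene, so that this level checks the total Eif2s1 message and not the ablation. In ribosome-protected fragments (RPFs) of the same cells Eif2s1 was higher in S51A, with a log2 fold change of 0.73 (SE 0.17, adjusted p = 0.0023).

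Here and below a log2 fold change is S51A minus S51, so that a positive value means more mRNA in S51A. A gene was called where its adjusted p was below 0.05 and its fold above 2. By this rule 614 of the 11353 genes were higher in S51A, or 5.41%, and 270 were lower, or 2.38%, so that 69.5% of the 884 calls were higher. Most differences were small: 8691 genes, or 76.6%, had an absolute log2 fold change under 0.5, and the median over all genes was 0.00. Small differences were nonetheless measured precisely, since 3555 genes (31.3%) were higher and 3706 (32.6%) lower at an adjusted p below 0.05 with no limit on the fold. The 4 libraries of one genotype lay wholly beyond the 4 of the other in 848 of the 884 called genes and in 6439 of all members. Folds above 4 were called for 247 genes, 175 higher and 72 lower. Called genes were mostly at low CPM, with a median of 4.81 CPM in S51A for those higher and 4.27 CPM in S51 for those lower. A mean above 100 CPM in the genotype with more was reached by 47 of the genes higher and 12 of those lower. Protein-coding genes made up 589 of the calls higher and 259 of the calls lower, and long noncoding RNAs 20 and 5.

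**Figure D1:**
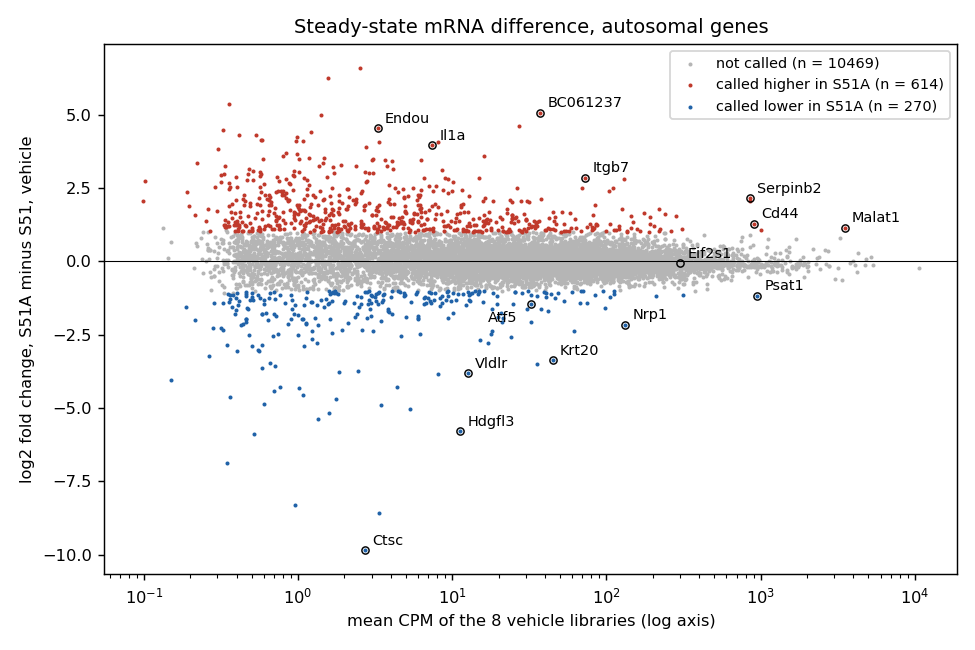
Each point is 1 of 11353 autosomal genes, placed by its mean CPM over the 8 vehicle libraries (log axis) and its log2 fold change, S51A minus S51, with red and blue for the 614 and 270 genes called higher and lower. Calls spread over the whole range of abundance, with Hdgfl3 and Ctsc at the lower edge, Malat1 at the right and Eif2s1 on the zero line.

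Genes that ATF4 and CHOP are known to drive stood lower in S51A at rest. Of 36 such genes 33 were tested, and 10 were called lower and 0 higher, against 2.38% and 5.41% of all genes. Their median log2 fold change was -0.79, against 0.00 over all genes, and 27 of 33 lay below 0. At an adjusted p below 0.05 with no limit on the fold, 26 were lower and 4 higher, against 32.6% and 31.3% of all genes. The number called lower ran from 9 to 10 over the settings tried, and the median from -0.82 to -0.76.

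Psat1, which makes the phosphoserine precursor in serine synthesis, had the highest CPM of the called members. It had 1302, 1278, 1331 and 1333 CPM in S51 and 574, 581, 586 and 598 in S51A (log2 fold change -1.16, SE 0.03, adjusted p = 4.2e-19). Every S51 library lay far above every S51A library. Aldh18a1, which opens proline synthesis, had 149, 149, 142 and 148 CPM in S51 and 62.2, 61.4, 62.5 and 67.5 in S51A (log2 fold change -1.21, SE 0.04, adjusted p = 3.2e-18). Mthfd2, a mitochondrial enzyme of one-carbon metabolism, had 303, 295, 282 and 282 CPM in S51 and 117, 131, 123 and 145 in S51A (log2 fold change -1.17, SE 0.07, adjusted p = 2.9e-13). Neither gene's groups overlapped. Other enzymes of this class were lower without reaching 2-fold: Asns (asparagine synthetase) at -0.94, Pck2 at -0.98, Aldh1l2 at -0.90, Shmt2 at -0.79, Pycr1 at -0.76, Psph at -0.57 and Phgdh at -0.37 on the log2 scale. Asns fell short by little, with 577, 615, 589.7 and 599.6 CPM in S51 and 303, 306, 305 and 323 in S51A, groups that did not overlap (adjusted p = 5.5e-17).

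Among amino acid transporters, Slc1a4, a carrier of small neutral amino acids, had 26.7, 28.6, 27.4 and 27.3 CPM in S51 and 9.13, 8.58, 8.83 and 8.76 in S51A (log2 fold change -1.64, SE 0.08, adjusted p = 8.3e-15). Slc7a5, the light chain of the LAT1 exchanger of large neutral amino acids, had 453, 426, 433 and 407 CPM in S51 and 194, 192, 205 and 186 in S51A (log2 fold change -1.14, SE 0.05, adjusted p = 2.3e-15). The groups did not overlap for either gene. The LAT1 heavy chain Slc3a2 stood at -0.70, the glutamine carrier Slc1a5 at -0.92, the glycine carrier Slc6a9 at -0.82 and the cystine carrier Slc7a11 at -0.54, all under 2-fold. The arginine carrier Slc7a1 and Slc38a2, a carrier of neutral amino acids, lay on the other side of 0, at 0.32 and 0.21.

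Of the regulators, Atf5, a transcription factor of the same family whose mRNA also carries upstream open reading frames, had 49.8, 49.01, 45.6 and 46.4 CPM in S51 and 17.9, 16.9, 16.7 and 17.7 in S51A (log2 fold change -1.46, SE 0.06, adjusted p = 1.3e-16). Trib3, a pseudokinase that feeds back on ATF4 and CHOP, had 55.01, 43.3, 45.7 and 35.95 CPM in S51 and 16.7, 20.9, 19.3 and 23.4 in S51A (log2 fold change -1.16, SE 0.12, adjusted p = 6.5e-09). Eif4ebp1, which encodes the translation repressor 4E-BP1, had 156, 154, 157 and 149 CPM in S51 and 72.4, 70.8, 73.5 and 69.5 in S51A (log2 fold change -1.11, SE 0.04, adjusted p = 1.6e-17). In each of the 3 every S51 library lay above every S51A library. Nupr1 stood at -0.93, the mTORC1 inhibitors Ddit4 and Sesn2 at -0.73 and -0.55, and Cebpb and Cebpg at -0.45 and 0.02. Atf4 itself had 772, 749, 708 and 696 CPM in S51 and 462, 486, 489.9 and 515 in S51A, without overlap and under 2-fold (log2 fold change -0.58, SE 0.04, adjusted p = 1.8e-11).

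The largest difference of the list was in Vldlr, the very low density lipoprotein receptor. It had 24.6, 22.5, 25.7 and 21.5 CPM in S51 and 1.55, 2.26, 1.61 and 1.27 in S51A (log2 fold change -3.81, SE 0.11, adjusted p = 8.9e-19). Its lowest S51 library exceeded its highest S51A library by far. Gdf15, a secreted stress cytokine, was called at a few reads per library: 8, 10, 8 and 10 counts in S51 and 0, 7, 6 and 0 in S51A (log2 fold change -1.42, SE 0.57, adjusted p = 0.033). This call was lost when S51 replicate 2 or 4 or S51A replicate 1 or 4 was left out, at log2 fold changes of -1.36, -1.41, -1.01 and -0.99.

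Ddit3, Chac1, Ppp1r15a and Atf3, genes that stress induces, were not called in either direction under vehicle. Ddit3, which encodes CHOP, had 13.04, 12.4, 12.6 and 10.8 CPM in S51 and 10.2, 10.8, 10.7 and 13.7 in S51A (log2 fold change -0.10, SE 0.13, adjusted p = 0.53). Chac1, a glutathione-degrading enzyme, had 27.1, 21.7, 16.4 and 17.1 CPM in S51 and 18.4, 23.3, 29.99 and 26.5 in S51A (log2 fold change 0.26, SE 0.15, adjusted p = 0.15). Ppp1r15a, which encodes the stress-inducible subunit of the eIF2α phosphatase (GADD34), had 24.4, 18.5, 19.6 and 17.6 CPM in S51 and 24.9, 23.5, 24.6 and 21.7 in S51A (log2 fold change 0.25, SE 0.08, adjusted p = 0.012). In all 3 the groups overlapped. Atf3, a transcription factor induced by ATF4, had 2.57, 1.81, 2.07 and 1.55 CPM in S51 and 4.24, 2.72, 2.96 and 2.67 in S51A, with S51A the higher group (log2 fold change 0.67, SE 0.20, adjusted p = 0.0051). Exons of Atf5, Ddit3 and Ppp1r15a overlap exons of genes on the other strand, as do those of Il1a, Ovol1, Grhl3, Cxcl16, Nrp1, Hdgfl3, Aspa, Cspp1, Cryab and Fst among the genes below (34 of 157 genes named), and whether the counting used strand was not given in the sources used here, so that reads of such partners may be mixed.

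**Figure D2:**
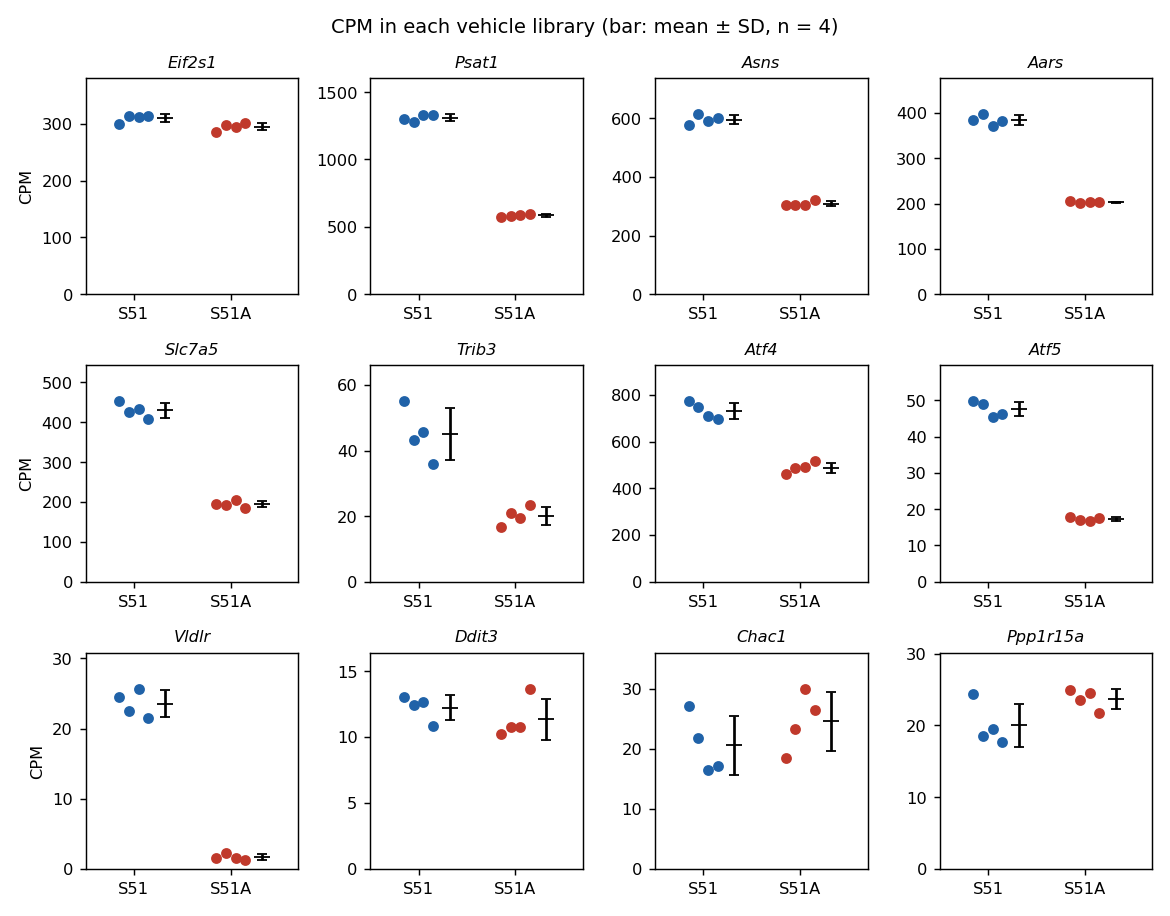
CPM of 12 genes of the stress response in each of the 4 S51 (blue) and 4 S51A (red) vehicle libraries, with the mean ± SD of each group as a black bar, each panel starting at 0. Psat1, Asns, Aars, Slc7a5, Trib3, Atf4, Atf5 and Vldlr lie lower in every S51A library, while Eif2s1, Ddit3, Chac1 and Ppp1r15a overlap.

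None of the 20 cytosolic aminoacyl-tRNA synthetases, which load tRNAs with amino acids, reached a 2-fold difference, and their median was -0.42. At an adjusted p below 0.05 with no limit on the fold 17 were lower and 1 higher, against 32.6% and 31.3% of all genes. These synthetases ran from Aars, the alanyl-tRNA synthetase, to Hars, the histidyl-tRNA synthetase. Aars had 383, 397, 371 and 383 CPM in S51 and 205, 201, 203 and 203 in S51A (log2 fold change -0.92, SE 0.03, adjusted p = 7.2e-17). Hars stood at 0.09. The 16 genes of eIF2, eIF2B, the eIF2 kinases and the phosphatase subunits had a median of -0.03 with 0 called in either direction, from Atf4, listed with them, to the kinase PERK (Eif2ak3, 0.28). Of 24 genes of endoplasmic reticulum chaperones and the unfolded protein response, 0 were called higher and 1 lower, with a median of 0.15. Over all genes 5.41% were called higher and 2.38% lower. The gene called, Herpud1, encodes a factor of endoplasmic reticulum-associated degradation and had 83.05, 82.8, 72.02 and 84.96 CPM in S51 and 26.01, 39.6, 34.1 and 57.5 in S51A (log2 fold change -1.03, SE 0.19, adjusted p = 3.5e-05). The Herpud1 call was lost without S51A replicate 1 or 3, at -0.88 and -0.97. Cytosolic heat shock proteins and cochaperones had a median of 0.05 over 22 genes. Of these 2 were higher, Hspa1a (1.09) and Cryab (1.02), against 5.41% of all genes. Hspa1a can lose reads that it has in common with its near-identical copy Hspa1b. The Hspa1a call was lost without S51 replicate 3 (0.98), and the Cryab call without S51 replicate 4 (0.97) or S51A replicate 1 (0.99) or 3 (0.99).

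The promoters of the ATF4 list were read for the C/EBP-ATF composite element TGATGNAA, on both strands, in the 300 bases from 250 before to 50 after each gene's start (RefSeq, GRCm38.p6). It was found in 10 of 28 list members with a promoter in the reference (35.7%) and in 241 of all 9117 tested autosomal genes with one (2.64%). Among genes called lower it was in 8 of 214 (3.74%), and among genes called higher in 18 of 460 (3.91%). A match is a string of letters and not a binding site. Of the 10 called list members 8 had a promoter in the reference and 3 of these held the element, and those 3 are shown from 220 bases before to 30 after the start, in the gene's own direction and with the element in capitals, to set the sequence beside the levels above. They are Vldlr at chr19:27216800-27217049 (plus strand), Slc1a4 at chr11:20332684-20332933 (minus strand) and Trib3 at chr2:152344031-152344280 (minus strand).
Vldlr: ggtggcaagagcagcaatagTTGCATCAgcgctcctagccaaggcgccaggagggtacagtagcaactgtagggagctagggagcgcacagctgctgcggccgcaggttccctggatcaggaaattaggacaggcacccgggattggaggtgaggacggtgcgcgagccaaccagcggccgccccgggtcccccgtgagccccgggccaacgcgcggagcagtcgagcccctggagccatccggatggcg
Slc1a4: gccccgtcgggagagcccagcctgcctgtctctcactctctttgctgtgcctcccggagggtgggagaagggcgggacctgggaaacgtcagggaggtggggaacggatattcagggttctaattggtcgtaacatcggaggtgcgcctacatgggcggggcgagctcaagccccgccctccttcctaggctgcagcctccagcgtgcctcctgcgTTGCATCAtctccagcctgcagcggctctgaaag
Trib3: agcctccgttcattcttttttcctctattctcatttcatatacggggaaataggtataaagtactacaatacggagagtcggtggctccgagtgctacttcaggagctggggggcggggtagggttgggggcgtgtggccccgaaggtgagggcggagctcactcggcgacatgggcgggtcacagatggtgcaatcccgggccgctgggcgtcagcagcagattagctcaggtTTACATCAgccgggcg

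Genes of the suprabasal epidermis and the cornified envelope, the cross-linked protein shell of differentiated keratinocytes, were higher in S51A. Of 27 tested, 16 were called higher and 0 lower, against 5.41% and 2.38% of all genes. The list median was 1.52, and 25 of 27 lay above 0. With Cnfn and S100a8, which were at the floor in S51, put at their lower bounds the median was 1.26, and among the 20 members with at least 10 counts in every library it was 0.96, with 10 called higher, the lowest count over the settings tried. The list as a whole, scaled by the library total without TMM, summed to 1278 to 1463 CPM in the S51 libraries and to 3020 to 3348 CPM in those of S51A. A large part of that sum was Serpinb2, a serpin of keratinocytes and macrophages, which had 292, 255, 352 and 344 CPM in S51 and 1412, 1307, 1481 and 1363 in S51A (log2 fold change 2.16, SE 0.10, adjusted p = 7.5e-15).

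Among precursors of the envelope, Ivl (involucrin) had 24.1, 24.9, 24.7 and 24.1 CPM in S51 and 77.3, 91.3, 73.4 and 71.6 in S51A (log2 fold change 1.68, SE 0.07, adjusted p = 4.2e-16). Sprr1a, a small proline-rich precursor, had 2.67, 2.23, 2.16 and 2.30 CPM in S51 and 16.1, 18.5, 17.3 and 13.8 in S51A (log2 fold change 2.81, SE 0.12, adjusted p = 6.7e-16). Tgm1, the transglutaminase that cross-links them, had 1.01, 1.30, 1.79 and 1.67 CPM in S51 and 5.43, 7.48, 8.03 and 4.60 in S51A (log2 fold change 2.12, SE 0.20, adjusted p = 1.4e-09). The groups did not overlap for any of the 3. Of other envelope genes, Sprr2h rose by 1.696, Sprr2d by 2.77 and the desmosomal cadherin Dsc2 by 1.03 on the log2 scale. Sprr2d had only 1 to 25 counts per vehicle library. Dsc2 lay at the limit of 2-fold, and its call was lost without S51A replicate 3, at 0.999. Cnfn (cornifelin) had 1, 1, 0 and 1 counts in S51 and 13, 23, 17 and 15 in S51A, at least 5.72-fold higher against a floor of 3 counts per library.

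Endou, an endoribonuclease made in suprabasal layers, had 0.453, 0.232, 0.184 and 0.209 CPM in S51 and 6.07, 7.43, 6.67 and 5.13 in S51A (log2 fold change 4.55, SE 0.23, adjusted p = 1.5e-14). The kallikrein proteases of desquamation Klk7 and Klk10 rose by 2.09 and 1.26, and the calgranulin S100a9 by 3.602, all on the log2 scale. Counts per vehicle library were low, from 6 to 65 for Klk7 and from 1 to 41 for S100a9. Its partner S100a8 had 2, 1, 2 and 2 counts in S51 and 4, 5, 7 and 11 in S51A, at least 2.25-fold higher. Of the transcription factors that drive this programme, Grhl3 had 2.77, 2.04, 2.39 and 2.09 CPM in S51 and 8.62, 8.54, 8.18 and 4.95 in S51A (log2 fold change 1.71, SE 0.18, adjusted p = 1.7e-08). Grhl1 had 13.9, 12.8, 13.2 and 13.5 CPM in S51 and 40.2, 41.9, 38.1 and 33.4 in S51A (log2 fold change 1.52, SE 0.08, adjusted p = 5.5e-14). Ovol1 had 3.47, 3.20, 3.44 and 2.97 CPM in S51 and 9.95, 10.8, 9.38 and 7.32 in S51A (log2 fold change 1.52, SE 0.14, adjusted p = 8.8e-10). None of these 3 overlapped between the genotypes, while Klf4 stood at 0.63, under 2-fold.

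Of the markers that define the spinous and granular layers, Krt1, Lor and Flg2 were near 0 in both genotypes, while Krt10, like Ivl above, was expressed. Krt1 had 0 to 1 counts per vehicle library, Lor (loricrin) 1 to 7 and Flg2 0, and Krt10 had 6.34, 6.45, 7.89 and 7.49 CPM in S51 and 8.99, 7.94, 8.53 and 8.37 in S51A (log2 fold change 0.26, SE 0.10, adjusted p = 0.023). Sprr1b and Sbsn, at over 100 CPM in every vehicle library, stood at 0.66 and 0.60, and the plakins Evpl and Ppl at 0.65 and -0.03. Of 19 basal epidermal genes, 1 was called higher and 2 lower, against 5.41% and 2.38% of all genes. The list median was 0.26, and Krt5, Krt14 and Trp63 stood at 0.28, 0.16 and 0.23. Sox2, a transcription factor of squamous carcinoma stem-like cells, had 37.7, 32.3, 33.7 and 32.4 CPM in S51 and 9.54, 8.40, 8.83 and 8.63 in S51A (log2 fold change -1.94, SE 0.09, adjusted p = 5.0e-15). Krt15, a keratin of basal and hair follicle stem cells, stood at -1.07, and its call was lost without S51 replicate 4 (-0.98) or S51A replicate 4 (-0.89). Cd44, the hyaluronan receptor, had 531, 474, 554 and 543 CPM in S51 and 1285, 1226, 1328 and 1280.1 in S51A (log2 fold change 1.28, SE 0.05, adjusted p = 1.1e-16).

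Keratins of stressed and simple epithelia were split. Krt16, a keratin of activated keratinocytes, had 150.3, 137, 146 and 146 CPM in S51 and 422, 464, 424 and 373 in S51A (log2 fold change 1.54, SE 0.09, adjusted p = 1.5e-13). Krt17 and Krt6b were also higher, by 2.45 and 2.48 on the log2 scale and at under 10 CPM. Krt20, a keratin of simple and Merkel epithelia, went the other way with 78.9, 78.2, 83.03 and 86.97 CPM in S51 and 7.25, 7.15, 8.93 and 8.54 in S51A (log2 fold change -3.36, SE 0.08, adjusted p = 4.7e-21). Of the 10 keratins in this list 3 were called higher and 1 lower, against 5.41% and 2.38% of all genes. Near-identical copies among Krt6, Krt16 and Krt17 and among the Sprr2 genes can lose common reads, so that their levels are uncertain.

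Cytokines, chemokines and genes of the NF-kB pathway were higher in S51A. Of 25 tested, 15 were called higher and 0 lower, against 5.41% and 2.38% of all genes, with a median of 1.28. At an adjusted p below 0.05 with no limit on the fold 22 were higher, against 31.3% of all genes. Among the 21 with at least 10 counts in every library 11 were called higher, the lowest count over the settings tried, with a median of 1.14. Il1a, the alarmin interleukin 1α, had 0.956, 0.650, 1.01 and 0.963 CPM in S51 and 16.4, 15.04, 13.6 and 10.95 in S51A (log2 fold change 3.96, SE 0.20, adjusted p = 1.4e-14). Its receptor antagonist Il1rn rose by 2.12, the related Il1f9 (interleukin 36γ) by 2.52 and Il18 by 2.402 on the log2 scale. Il23a and Tslp, cytokines by which epithelia act on immune cells, stood at 62, 59, 56 and 57 and 17, 18, 10 and 4 counts in the S51A libraries against 6, 8, 5 and 1 and 2, 0, 0 and 1 in S51.

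Neutrophil chemokines were among the genes higher. Cxcl5 had 23.7, 21.8, 21.99 and 17.1 CPM in S51 and 145, 117, 123 and 88.3 in S51A (log2 fold change 2.49, SE 0.13, adjusted p = 4.4e-14). Cxcl3 had 70.97, 60.6, 60.2 and 56.96 CPM in S51 and 175, 154, 145 and 128 in S51A (log2 fold change 1.28, SE 0.10, adjusted p = 1.4e-10). Cxcl1 had 22.9, 21.1, 14.3 and 17.3 CPM in S51 and 60.1, 58.5, 39.9 and 38.8 in S51A (log2 fold change 1.39, SE 0.15, adjusted p = 1.2e-08). In all 3 every S51A library lay above every S51 library, as it did for Cxcl16 (1.13) and for Csf3, the granulocyte growth factor (1.79). Among NF-kB genes themselves, Tnfaip3, which encodes the inhibitor A20, had 47.4, 52.998, 54.3 and 45.2 CPM in S51 and 115, 124, 131 and 113 in S51A (log2 fold change 1.27, SE 0.06, adjusted p = 1.9e-14). Relb and Tnfaip2 rose by 1.39 and 1.32 and the adhesion molecule Icam1 by 1.67, while Nfkb2, Nfkbia, Rela and Nfkb1 stood at 0.85, 0.80, 0.53 and 0.30, under 2-fold. Immune cell markers, of which 2 were tested, moved beside this group: Csf1r had 0.201, 0.186, 0.505 and 0.251 CPM in S51 and 1.78, 1.34, 1.91 and 1.31 in S51A (log2 fold change 2.43, SE 0.30, adjusted p = 1.4e-07), Cd68 stood at 0.67, and Ptprc, the pan-leukocyte marker, at 0 to 4 counts per library. Their part in the cytokine values was not tested.

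The same promoter windows were read for the AP-1 element TGANTCA and for the NF-kB element, GGGNN followed directly by TTTCC, both of them common elements in keratinocyte and inflammatory genes. TGANTCA was in 9 of 21 suprabasal genes with a promoter (42.9%), in 587 of all 9117 (6.44%), in 69 of 460 called higher (15%) and in 13 of 214 called lower (6.07%). The NF-kB element was in 7 of 16 cytokine and NF-kB genes (43.8%), in 185 of all (2.03%), in 13 called higher (2.83%) and in 2 called lower (0.935%). Among called members with a promoter, TGANTCA was in 5 of 13 suprabasal genes (38.5%) and the NF-kB element in 4 of 9 cytokine and NF-kB genes (44.4%). Sbsn and Krt13, which were not called, also had a window with 2 matches to TGANTCA. The matches to the 3 elements did not overlap each other in any of these windows. As an example of each, the windows of Sprr1a (chr3:92485852-92486101, minus strand) and Cxcl1 (chr5:90891025-90891274, plus strand) are shown from 220 bases before to 30 after the start with the elements in capitals, since each holds 2 matches.
Sprr1a: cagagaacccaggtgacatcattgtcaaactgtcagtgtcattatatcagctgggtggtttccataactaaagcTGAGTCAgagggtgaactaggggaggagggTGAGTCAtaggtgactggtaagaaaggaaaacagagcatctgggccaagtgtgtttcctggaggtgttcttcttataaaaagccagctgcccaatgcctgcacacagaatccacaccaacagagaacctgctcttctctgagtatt
Cxcl1: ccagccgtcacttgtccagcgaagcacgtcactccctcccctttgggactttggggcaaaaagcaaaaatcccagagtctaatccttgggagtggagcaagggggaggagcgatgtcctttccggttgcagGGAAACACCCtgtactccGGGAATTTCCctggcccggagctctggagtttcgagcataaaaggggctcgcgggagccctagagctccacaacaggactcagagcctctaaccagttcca

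**Figure D3:**
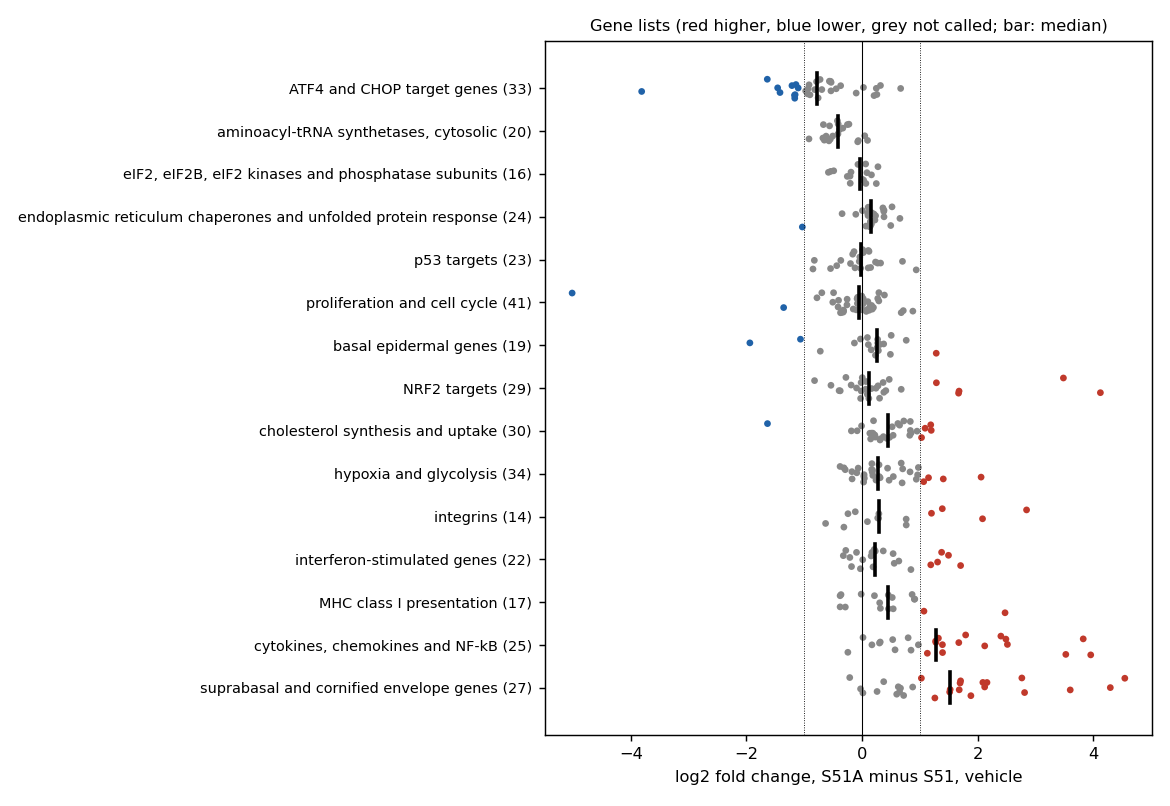
Each point is a tested member of 1 of 15 gene lists (number tested in parentheses), placed by its log2 fold change, S51A minus S51 under vehicle, with black bars at the list medians and dotted lines at a 2-fold difference. The ATF4 and CHOP targets (median -0.79) and aminoacyl-tRNA synthetases (median -0.42) lie to the left, the suprabasal (median 1.52) and cytokine lists (median 1.28) to the right, and most other medians near 0.

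Metabolic and protective genes had smaller medians, and their counts stand beside 5.41% of all genes called higher and 2.38% called lower. Cholesterol genes had a median of 0.45 over 30, with 4 called higher and 1 lower. At an adjusted p below 0.05 with no limit on the fold 24 were higher and 2 lower, against 31.3% and 32.6% of all genes. Hmgcs1, the synthase ahead of HMG-CoA reductase, had 64.3, 72.1, 78.3 and 79.9 CPM in S51 and 156, 170.2, 172 and 178 in S51A (log2 fold change 1.197, SE 0.07, adjusted p = 1.2e-13). Msmo1, Fdft1 and Scd1 were also called higher, at 1.03, 1.19 and 1.09. The Msmo1 call was lost without S51 replicate 1 (0.99) and the Scd1 call without S51 replicate 2 (0.98). Hypoxia and glycolysis genes had a median of 0.27 over 34 with 4 higher and 0 lower, led by Adm (adrenomedullin), which had 11.3, 10.3, 11.7 and 10.1 CPM in S51 and 43.4, 53.4, 48.95 and 34.9 in S51A (log2 fold change 2.06, SE 0.10, adjusted p = 1.4e-14). Bnip3 and Pfkfb4 rose by 1.41 and 1.15. Epas1 (HIF-2α) stood at 1.07, and its call was lost without S51 replicate 3 (0.90) or S51A replicate 4 (0.98). NRF2 targets had a median of 0.12 over 29 with 5 higher and 0 lower: Nqo1 (1.67), Cbr3 (1.68) and the glutathione transferases Gsta1 (3.48), Gsta2 and Gsta3 (1.29). Near-identical copies of these transferases can lose common reads.

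Of 22 interferon-stimulated genes 5 were higher and 0 lower (median 0.22), namely Oas1a (1.71), Oas3 (1.38), Xaf1 (1.496), Stat2 (1.31) and Irf7 (1.19). Of 17 genes of MHC class I presentation 2 were higher and 0 lower (median 0.45). Over all genes 5.41% were higher and 2.38% lower. H2-K1, a class I heavy chain, had 11.1, 10.3, 11.3 and 10.4 CPM in S51 and 24.1, 21.96, 22.6 and 21.8 in S51A (log2 fold change 1.07, SE 0.08, adjusted p = 2.0e-11). Psmb8, the immunoproteasome subunit LMP7, rose by 2.47 on the log2 scale.

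Integrin, matrix and tubulin genes had a few members higher in S51A and 0 lower, and focal adhesion proteins had calls in both directions. Among 14 integrins 4 were higher and 0 lower (median 0.29), against 5.41% and 2.38% of all genes. Itgb7, the integrin β7 chain, had 16.9, 17.5, 18.4 and 17.997 CPM in S51 and 122, 123, 139 and 127 in S51A (log2 fold change 2.85, SE 0.05, adjusted p = 1.1e-22). Itga2, the collagen-binding α2 chain, had 10.3, 9.19, 8.72 and 7.99 CPM in S51 and 43.1, 38.5, 36.5 and 35.05 in S51A (log2 fold change 2.08, SE 0.08, adjusted p = 1.9e-16). Itgb5 rose by 1.39, and Itgb2 stood at 1.201 with overlapping groups, its call lost without S51 replicate 2 or 3 or S51A replicate 1 or 4 (1.04 to 1.13). Extracellular matrix genes had 4 higher and 0 lower of 19 (median 0.41): Thbs1, Thbs2 (3.004), Ltbp1 (2.07) and Lamb2 (1.43). Thbs1, the matricellular protein thrombospondin 1, had 389, 274, 349 and 322 CPM in S51 and 1693, 1215, 1371 and 1244 in S51A (log2 fold change 2.05, SE 0.13, adjusted p = 1.9e-12). Focal adhesion proteins had a median of 0.03 over 34, beside 0.00 over all genes, with Lims2 (2.76) among those higher and Tln2 (-1.12) lower. Of 10 tubulins Tuba1a (2.04) and Tubb2b (2.39) were higher, with a median of 0.28, and near-identical tubulin genes can lose common reads.

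Centrosome and cilium genes centred on 0. Over 38 genes the median was 0.00, with 0 higher and 1 lower, against 5.41% and 2.38% of all genes. The gene lower was Ninl, which had 17.3, 17.3, 17.9 and 15.8 CPM in S51 and 8.62, 7.57, 8.68 and 8.32 in S51A (log2 fold change -1.04, SE 0.07, adjusted p = 1.2e-11). The Ninl call was lost without S51A replicate 2, at -0.997. Cspp1, which encodes a spindle pole protein, had 17.3, 15.5, 15.4 and 15.5 CPM in S51 and 19.2, 17.3, 19.9 and 18.4 in S51A (log2 fold change 0.23, SE 0.07, adjusted p = 0.0063). Bbs4, a subunit of the BBSome, had 8.81, 9.24, 9.82 and 9.67 CPM in S51 and 5.66, 8.35, 5.77 and 6.70 in S51A (log2 fold change -0.50, SE 0.12, adjusted p = 9.7e-04). Neither reached 2-fold. The groups did not overlap, though the nearest libraries of Cspp1 both round to 17.3 CPM.

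Epithelial-mesenchymal transition genes were split, with 2 higher and 2 lower of 19 (median 0.13), against 5.41% and 2.38% of all genes. Vim (vimentin) had 27.7, 33.4, 32.3 and 27.5 CPM in S51 and 6.07, 5.03, 5.32 and 5.08 in S51A (log2 fold change -2.49, SE 0.10, adjusted p = 1.0e-16). Twist2, a transcription factor of mesenchymal cells that also stands in the fibroblast list, had 4.43, 3.81, 4.73 and 5.32 CPM in S51 and 0.502, 0.369, 0.150 and 0.307 in S51A (log2 fold change -3.75, SE 0.24, adjusted p = 1.4e-12). The matrix metalloproteinases Mmp13 and Mmp10 were higher: Mmp13 had 26, 47, 72 and 40 counts in S51A against 2, 3, 4 and 7 in S51, and Mmp10 65, 64, 51 and 56 against 0, 2, 2 and 3, at least 19.7-fold higher. Beside Twist2, 1 other fibroblast marker was tested, Pdgfra, at 0.86. Of the endothelial markers Tie1 was higher (1.64) and Kdr lower (-1.45), and of 3 melanocyte markers 0 were called (Pmel 0.40, Mitf -0.74). Their part in the results was not tested.

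Signalling lists had members on both sides, beside 5.41% of all genes called higher and 2.38% called lower. In RAS-MAPK output and feedback 4 of 35 were higher and 1 lower (median 0.16): the phosphatase Dusp4 (1.695), Spred3 (1.51), Fosb (1.07) and Il11 (1.03) were higher, and the feedback inhibitor Spry1 had 9.66, 11.05, 10.5 and 11.1 CPM in S51 and 1.60, 1.98, 1.91 and 2.02 in S51A (log2 fold change -2.49, SE 0.11, adjusted p = 2.5e-15). The Fosb call was lost without S51 replicate 2 (0.90) or 4 (0.97) or S51A replicate 3 (0.93), and the Il11 call without the same 3 libraries, at 0.86, 0.92 and 0.77. In the TGF-beta pathway 4 of 25 were higher and 2 lower (median 0.05). Fst (follistatin), which traps activins, had 126, 107, 139 and 103 CPM in S51 and 425, 358, 386 and 289.7 in S51A (log2 fold change 1.62, SE 0.12, adjusted p = 2.5e-11). Inhba, an activin subunit, rose by 1.602 and Pmepa1 by 1.37, while Bmp7 fell, with 29.1, 28.8, 27.7 and 28.3 CPM in S51 and 10.6, 10.1, 11.1 and 9.81 in S51A (log2 fold change -1.45, SE 0.07, adjusted p = 2.9e-15), as did Tgfbr3 (-1.24). Acvr1 stood at 1.03, a call lost without S51 replicate 2 (0.96) or S51A replicate 1 (0.99). In the Wnt list Fzd5 was higher (1.77) and Fzd1 lower (-2.48) of 19 (median 0.25), and in the Notch list Notch3 was higher (1.24) of 15 (median 0.14).

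Genes of growth and arrest had medians near 0, and their counts stand beside 5.41% of all genes called higher and 2.38% called lower. Over 41 proliferation and cell cycle genes the median was -0.05, with 0 higher and 2 lower. Cdkn1c, the imprinted cyclin-dependent kinase inhibitor p57, had 10.9, 10.3, 11.1 and 9.08 CPM in S51 and 0.548, 0.138, 0.251 and 0.307 in S51A (log2 fold change -5.02, SE 0.19, adjusted p = 9.8e-17). E2f2 stood at -1.36. Over 23 p53 targets the median was -0.02 with 0 called, from Ei24 (-0.85) to Cd80 (0.94). The latter passed 2-fold without S51 replicate 4 or S51A replicate 4 (1.04 in both). Of 22 imprinted genes Igf2r (1.94) and Zrsr1 (1.15) were higher and Cdkn1c lower (median 0.01).

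The largest differences among genes with at least 100 counts in every library of the higher group belonged to no single list. Lowest in S51A were Ctsc, the protease cathepsin C, and Aspa, aspartoacylase. Ctsc had 101, 137, 115 and 124 counts in S51 and 0, 0, 0 and 0 in S51A, at least 39.3-fold lower against the floor of 3 counts per library. Aspa had 126, 132, 133 and 199 and 0, 0, 1 and 0 counts, at least 48.3-fold lower. Hdgfl3, a relative of hepatoma-derived growth factor, had 23.1, 20.7, 23.2 and 21.4 CPM in S51 and 0.0913, 0.277, 0.351 and 0.832 in S51A (log2 fold change -5.79, SE 0.20, adjusted p = 2.7e-17). Cdkn1c, given above, followed at -5.02, then the transcription factor gene Mecom at -4.89, the sodium channel gene Scn9a at -4.27, the repulsive guidance molecule Rgma at -3.84, Vldlr at -3.81, the ubiquitin ligase gene Pdzrn3 at -3.49 and Krt20 at -3.36. Other genes lost to the floor in S51A were Insyn1, Iqgap2 and Bhlhe41, a circadian repressor, at least 24.6-, 22.2- and 18.9-fold lower. In all, 19 called genes were at or under the floor in every S51A library and 20 in every S51 library. A pair of zinc finger genes of chromosome 4, chosen after their values were seen, were at 0 in S51A, Zfp990 with 41, 34, 42 and 49 and Zfp982 with 13, 14, 15 and 19 counts in S51, and copies of this family can lose common reads.

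Highest in S51A was Gm6093, which has no described function, with 118, 101, 104 and 108 counts against 2, 2, 0 and 0 in S51, at least 36.1-fold higher. BC061237 had 1.61, 2.55, 2.07 and 2.30 CPM in S51 and 73.1, 68.1, 73.8 and 73.1 in S51A (log2 fold change 5.07, SE 0.08, adjusted p = 9.6e-24). It lies on chromosome 14 at chr14:44500122-44506345, and Gm10375 at chr14:43602627-43608059 and 1700091H14Rik at chr14:42089750-42095277, also among the 10 largest at 3.47 and 4.08, belong to the same stretch of related genes, so that reads common to them may be lost. Prl8a9, a placental prolactin relative, had 1.71, 1.90, 1.88 and 2.89 CPM in S51 and 49.2, 50.8, 55.7 and 53.1 in S51A (log2 fold change 4.62, SE 0.10, adjusted p = 1.9e-21). Angptl2 (4.08), Bcl2l15 (3.601) and the kinase gene Camk1d (3.46) completed the 10, beside Il1a and Endou. Gsdmd, the pore-forming effector of pyroptosis, had 0, 0, 0 and 3 counts in S51 and 84, 62, 73 and 46 in S51A, at least 22.4-fold higher. The aspartic protease gene Ctse and Gsta2 were at least 7.37- and 7.93-fold higher. Map3k8, the kinase TPL2, chosen after its values were seen, had 60, 41, 43 and 57 counts in S51A against 3, 4, 1 and 1 in S51.

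By mean CPM, which is not scaled to transcript length, the genes called higher were headed by Malat1, Serpinb2, Thbs1, Emp1 and Cd44, and those called lower by Psat1, Slc7a5, Mthfd2, Nrp1 and Eif4ebp1. Malat1, a nuclear long noncoding RNA, had 2157, 2125, 2219.5 and 2280.2 CPM in S51 and 5111, 4813, 5018 and 4461 in S51A (log2 fold change 1.14, SE 0.05, adjusted p = 1.6e-15). Emp1, an epithelial membrane protein, had 675, 631, 679 and 628 CPM in S51 and 1487, 1249, 1462 and 1293 in S51A (log2 fold change 1.07, SE 0.06, adjusted p = 2.1e-13). Nrp1, the semaphorin and VEGF co-receptor neuropilin 1, had 227, 207, 211 and 221 CPM in S51 and 48.3, 45.3, 47.3 and 52.8 in S51A (log2 fold change -2.16, SE 0.06, adjusted p = 1.7e-19). The genotypes did not overlap in any of these 10 genes. Of these 5 calls lower, 4 are ATF4 targets by the list above.

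The same genotype difference was then read in the bortezomib libraries, which the vehicle comparison did not use. There 626 genes (5.51%) were called higher and 310 (2.73%) lower. Of the 614 genes higher under vehicle, 607 were above 0 under bortezomib and 470 (76.5%) were also called higher, which is 75.1% of the bortezomib calls. Of the 270 lower, 267 were below 0 and 198 (73.3%) were also called lower, which is 63.9% of the bortezomib calls. The median log2 fold changes of the 2 groups of genes were 1.48 and -1.42 under vehicle and 1.41 and -1.40 under bortezomib. The ATF4 list went from 10 to 19 called lower, with a median of -1.17, the aminoacyl-tRNA synthetases from 0 to 2 with a median of -0.74, the suprabasal list had 15 called higher with a median of 1.11, and the cytokine list 12 with a median of 0.97.

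**Figure D4:**
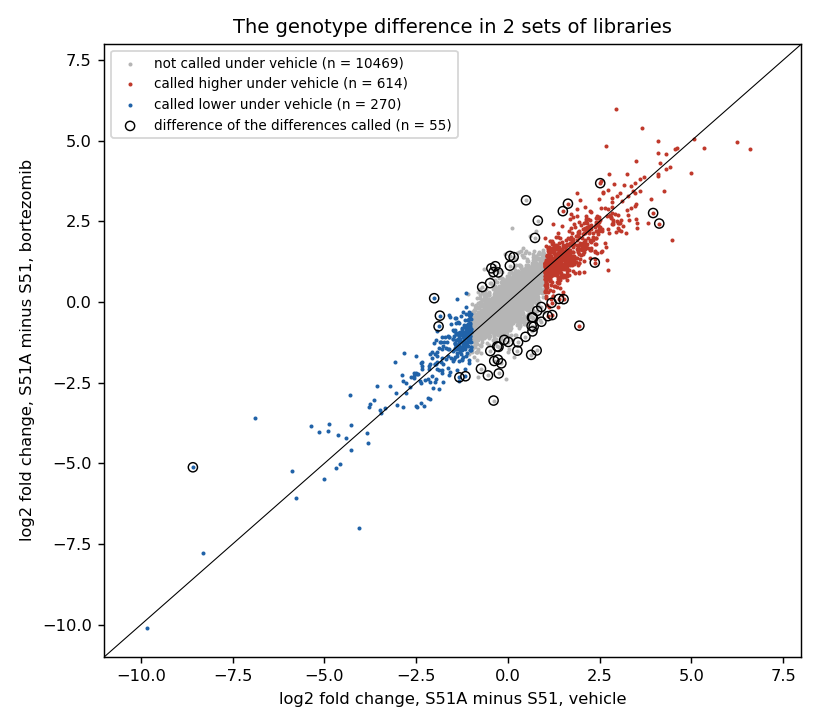
Each point is an autosomal gene, placed by its log2 fold change between S51A and S51 under vehicle (x) and under bortezomib (y), with the line of equal differences. The genes called under vehicle (red and blue) follow the line, and the 55 open circles mark the genes whose difference itself changed with treatment.

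The change of the genotype difference with treatment was tested as an interaction, and 55 genes (0.484%) were called, 36 with a larger vehicle value and 19 with a smaller one. This count fell to 22 (17 and 5) with DESeq2 and to 25 (19 and 6) with at least 10 counts in every library. Of the 884 genes called under vehicle 18 were among them. Members of the ATF4 and CHOP list were among the 55. Ddit3 stood at -0.10 under vehicle and -1.17 under bortezomib (difference 1.07, SE 0.18, adjusted p = 1.4e-04). Chac1 stood at 0.26 and -1.51 (difference 1.77, SE 0.22, adjusted p = 5.1e-06). Atf3 stood at 0.67 and -0.91, and Trib3 at -1.16 and -2.302, and both differences were called. Cxcl1 and Ovol1, higher in S51A under vehicle, stood at 0.10 and 0.09 under bortezomib, and both interactions were called, at 1.29 and 1.43. Il1a went from 3.96 to 2.76 and Il1f9 the other way, from 2.52 to 3.68. Vehicle values enter both the genotype difference and the interaction, so these are not separate lines of evidence.

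Ribosome footprints of vehicle-treated cells, from 4 S51A and 3 S51 libraries of the same experiment, were set beside the mRNA differences. In footprints, called above 1.5-fold, 839 of 9172 autosomal genes (9.15%) were higher and 616 (6.72%) lower. Of the mRNAs called higher 329 could be tested there and 301 were also called higher, with medians of 1.39 in mRNA and 1.44 in footprints. Of those called lower 117 could be tested and 106 were also called lower, with medians of -1.33 and -1.42. Eif2s1 and Cspp1 stood apart from this, at -0.07 and 0.23 in mRNA against 0.73 and 0.87 in footprints.

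Finally, the differences were laid out along the genome. Whole autosomes had medians near 0, from -0.17 on chromosome 9 to 0.16 on chromosome 2, and the 4 S51A libraries taken one at a time ran from -0.19 to -0.15 on chromosome 9 and from 0.15 to 0.18 on chromosome 2. On chromosome 18 the median was 0.13, with 70.5% of genes above 0 and all 8 windows of 10 Mb with at least 20 genes above 0 at their medians (0.05 to 0.24), a shift along the whole chromosome. Chromosomes 13 and 16 stood at -0.10 and -0.07, with 62.2% and 59.5% of genes below 0. Regional shifts on 4 other chromosomes are described next, and they are not the only ones. On chromosome 9 the genes between 10 and 70 Mb had a median of -0.40, with 264 of 338 below 0, and those from 70 Mb on 0.00. On chromosome 2 the genes up to 140 Mb had a median of 0.25, with 527 of 663 above 0, and the rest -0.07. Chromosome 8 from 90 Mb on had a median of -0.22 (196 of 260 below 0) against 0.03 before it, and the window of chromosome 3 from 30 to 40 Mb one of -0.64 (31 of 35 below 0). The same 4 stretches, chosen after their values were seen, stood at -0.38, 0.26, -0.18 and -0.74 under bortezomib and at -0.34, 0.29, -0.36 and -0.42 in footprints, in the order chromosome 9, 2, 8 and 3. Some single windows of 10 Mb elsewhere had medians about as far from 0 as the stretches of chromosomes 2 and 8. Among them were chromosome 5 from 60 to 70 Mb (-0.30) and from 90 to 100 Mb (0.28), and chromosome 19 from 10 to 20 Mb (-0.24). No window elsewhere with at least 20 genes lay as far from 0 as the stretches of chromosomes 9 and 3.

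The 4 stretches held 1296 members, or 11.4%, and 130 of the 884 calls, 90 higher and 40 lower. Of the genes described above, Il1a, Il1f9, Il1rn, Thbs1, Cd44, Angptl2, Camk1d, Acvr1, Chac1, Scn9a and Vim lie in the stretch of chromosome 2, Icam1, Il18, Cryab, Bbs4, Tln2, Ei24 and Insyn1 in that of chromosome 9, Slc7a5, Aars, Herpud1, Nqo1 and Nrp1 in that of chromosome 8, and Sox2 and Spry1 in that of chromosome 3. Outside the 4 stretches the ATF4 list had 9 of 31 called lower with a median of -0.79, the suprabasal list 16 of 27 higher with a median of 1.52, and the cytokine list 10 of 20 higher with a median of 1.05. That cytokine count still holds genes of the shifted window of chromosome 5 from 90 to 100 Mb, Cxcl1 and Cxcl3 among them. Of the suprabasal calls, Ivl, Sprr1a, Sprr2d and Sprr2h lie together on chromosome 3, in the window from 90 to 100 Mb. That window had a median of 0.02, with 16 of 121 genes called higher. DNA copy number was not measured here, and its part in these differences was not tested.

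**Figure D5:**
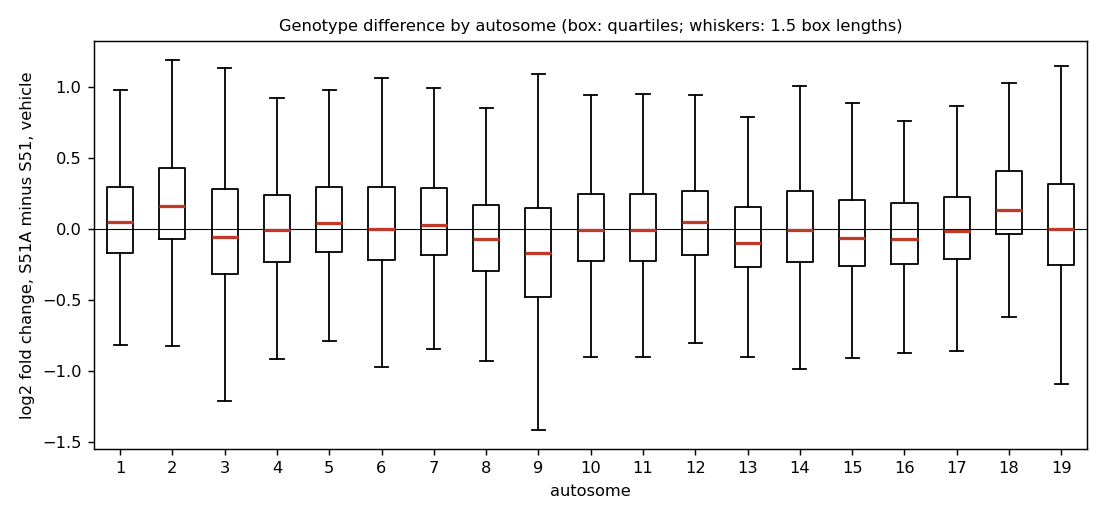
Log2 fold change, S51A minus S51 under vehicle, of the tested genes of each of the 19 autosomes, as boxes of the quartiles with the median in red and whiskers to 1.5 box lengths. Chromosome 9 sits lowest, with a median of -0.17, and chromosome 2 highest, with 0.16.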

How the data were processed

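Total RNA of SCC cells was depleted of rRNA, made into libraries and sequenced by the authors as single reads. The authors deposited raw read counts per gene, as whole numbers without normalization, in 1 table for total RNA and 1 for RPFs. Their methods describe trimming by FastX, alignment to mm10 by bowtie2 and counting by plastid, whereas the submitters' processing notes name Bowtie2, featureCounts and DESeq2. Column names add that repeats were masked, duplicates marked, only uniquely mapped reads kept and resequenced runs merged. Genes with near-identical copies lose reads to the unique-mapping rule. No column was left out. Of 24593 listed genes 24569 matched a name in the RefSeq annotation of mm10.

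The tests used edgeR 4.0.16 with limma 3.58.1 under R 4.3.3. Genes were filtered by filterByExpr (10 counts, total of 15) and scaled by TMM, and the 16 total RNA libraries were fitted by glmQLFit with 1 coefficient per group and tested by glmQLFTest, adjusting p by Benjamini-Hochberg across all 11708 genes tested. The sex-linked genes (345 on X, 4 on Y) and 6 genes without a chromosome stayed in the fit and out of the counts. The 15 RPF libraries were fitted in the same way. Calls needed an adjusted p below 0.05 and a fold above 2 (1.5 for RPF). The procedure was tested on simulated data. No pair of vehicle replicates was a repeated library (chi-square per gene at least 2.69 over 12 pairs, where sampling noise gives about 1). CPM were TMM-scaled. Against a group at or under 3 counts in every library, folds are bounds against that floor, which covers counting error only. Coordinates are 1-based.

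The members and gene lists were chosen with earlier results of these data known. List members with low counts were not tested. The genes named were the 10 with the largest called difference in each direction with at least 100 counts in every library of the higher group and no overlap, the called members of each list (of more than 6, the 3 largest in each direction, and where none was called the 2 ends), the 5 most abundant calls in each direction, up to 5 calls at the floor in each direction, and Eif2s1, Atf4, Atf5, Ddit3, Ppp1r15a, Cspp1 and Bbs4. This gave 120 genes. Another 37, the remaining called members of the ATF4, suprabasal and cytokine lists and 10 more, were added after their values were seen, as were uncalled list members given by value only. A few of the genes so chosen are not reported here.

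Alternatives were DESeq2 1.42.0, RLE factors or library sizes alone, TMM from autosomal genes, no filter beyond 1 count, at least 10 counts in every library, a test against a 2-fold threshold (glmTreat), a fold of 1.5, only the groups compared, replicate number as a block, each replicate left out, and, chosen after seeing the data, the genes of 4 chromosome stretches left out.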

Additional observations from a re-analysis of the deposited data

Results flagged for a closer look

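Among 314 groups of 4 vehicle libraries of the named genes, 22 held 1 library far from the other 3 by Dixon's test, where chance flags about 1 in 20 groups. In S51 these were replicate 1 for Cspp1 (17.3 CPM), Eif2ak3 (27.0 CPM) and Eif2s1 (298.8 CPM), replicate 2 for Ctsc (6.36 CPM), Gsta2 (0.0928 CPM), Il1a (0.650 CPM) and Ltbp1 (5.75 CPM), replicate 3 for Aldh18a1 (142.1 CPM), Cnfn (0 CPM) and Herpud1 (72.0 CPM), and replicate 4 for Aspa (8.33 CPM), Gsdmd (0.126 CPM), Mecom (5.48 CPM), Prl8a9 (2.89 CPM) and Psmb8 (0.126 CPM). In S51A they were replicate 2 for BC061237 (68.1 CPM) and Tnfaip2 (21.2 CPM), replicate 3 for Aspa (0.0502 CPM) and replicate 4 for Asns (322.8 CPM), Ddit3 (13.7 CPM), Grhl3 (4.95 CPM) and Thbs2 (4.29 CPM). Only 1 of these, Herpud1, is a gene whose call depended on which library was kept, and there on S51A libraries.

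For 11 named genes the genotype difference itself differed between vehicle and bortezomib by edgeR's interaction test. The vehicle value minus the bortezomib value was 1.77 for Chac1, 1.58 for Atf3, 1.14 for Trib3 and 1.07 for Ddit3, all of them ATF4 or CHOP targets by the list. It was 1.29 for Cxcl1, 1.20 for Il1a and -1.17 for Il1f9 among cytokines, 1.43 for Ovol1, 1.69 for Gsta2, -1.41 for Tie1 and -3.46 for Aspa. Gsta2 and Aspa were at or under 3 counts per library in one genotype under vehicle, so that their fitted values depend on the prior count.

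Outside the autosomal genes, the 4 Y-linked genes had 0 counts in all 4 S51 vehicle libraries and were present in all 4 S51A vehicle libraries. The lowest S51A library held 54.3 CPM of Eif2s3y, 50.7 CPM of Ddx3y, 32.3 CPM of Kdm5d and 22.996 CPM of Uty.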

How the results depend on the processing

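The main setting called 884 genes under vehicle. A fit of genes with at least 10 counts in every library called 567 (405 higher, 162 lower), of which 557 were among the 884. That filter by construction leaves out genes near 0 in one genotype. A test against a 2-fold threshold called 463 (334 and 129), and a fold of 1.5 called 1989 (1273 and 716). The bortezomib count went from 936 to 564 with the stricter filter. The interaction count went from 55 to 22 with DESeq2 and 25 with the stricter filter, and beyond the filter the cause was not tested. With replicate number as a block, 886 genes were called under vehicle (613 higher, 273 lower), 67 by the interaction, and no named gene's call changed between the genotypes under vehicle. Deviations of same-numbered libraries from their group means correlated at 0.14, 0.01, 0.07 and 0.17, while 3 of 4 S51 and 3 of 4 S51A libraries correlated best with their own number, a hint of pairing from the data that the labels do not give. With not every pair above 0.1 the numbers were not taken to pair the samples, and a factor shared by them was not tested further. Leaving out 1 vehicle library gave 890 to 940 calls under vehicle and, for footprints, 1269 to 1816, the latter without S51 replicate 3 and split 902 higher and 914 lower. Leaving out the 4 chromosome stretches, chosen after seeing the data, left 754 calls (524 higher, 230 lower). Under DESeq2, RLE factors, library sizes alone, no filter and the block, every named gene kept its direction and its call, while named genes under 10 counts in any library have no value with the stricter filter. Leaving out 1 library moved Cd80 (1.04 and 1.04), Mitf (-1.29) and Nupr1 (-1.06) past the threshold, and the calls it ended are given beside each gene. Library sizes alone moved the median of all genes to 0.02, and most chromosome medians by as little. Depth limits the genes under 10 reads in some libraries, such as Gdf15, Tslp, S100a8, S100a9, Sprr2d and Itgb2.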
